A study of Mus musculus with 2 samples.

Results

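The genes described here encode collagen and laminin chains, taken as every gene of the deposited matrices whose symbol is Col, a number, a and a number, or Lam, a, b or c and a digit. This gave 55 of the 32285 genes, 44 collagen genes and 11 laminin genes. The rule used symbols and no value of expression, but the genes were chosen with earlier results of these data known. Droplet 5′ RNA sequencing measured them cell by cell in mouse hippocampus at 4 weeks of age. The first genotype, the Crlf3 mutant, carries the L389P allele of Crlf3 (cytokine receptor-like factor 3), the other is wild type, and neither was treated. Each genotype is 1 library that pooled 4 hippocampi, of 2 mice by the wording of the series' design, before dissociation, debris and myelin removal and a sort for live cells. The labels give neither strain nor zygosity, and no cell can be traced to a mouse. With 1 library per genotype there are no replicates, so differences are given as values without a test. The mutation cannot be told apart from pool, dissociation, sort or droplet run, and every interval below is a 95% interval that covers counting error only.

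Collagens are trimers of α chains that form fibrils, networks or short filaments, and laminins are cross-shaped heterotrimers of an α, a β and a γ chain. Type IV collagen and laminins are the main networks of basement membranes, which in the brain surround the vessels and underlie the choroid plexus epithelium. Vessel basement membranes are built by endothelial cells, by mural cells (pericytes and smooth muscle cells) and, on the tissue side, by astrocyte endfeet, while fibrillar collagens are mainly products of fibroblasts of the meninges and larger vessels.

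The type IV genes lie in head-to-head pairs, and the start regions of 2 pairs are shown because the levels of the paired genes are compared below. Col4a1 (minus strand) and Col4a2 (plus strand) have annotated first exons that overlap by 22 bases at chr8:11312805-11312826 (mm10). Col4a4 (minus strand) and Col4a3 (plus strand) start 71 bases apart, with the spacer at chr1:82586850-82586920, and Col4a6 and Col4a5 start 1308 bases apart on the X chromosome. The plus-strand bases are given from the RefSeq promoter table of the mouse genome (GRCm38.p6), with a GC box (GGGCGG on either strand) in capitals.
Col4a1 and Col4a2 start overlap: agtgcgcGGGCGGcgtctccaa
Col4a3 and Col4a4 spacer: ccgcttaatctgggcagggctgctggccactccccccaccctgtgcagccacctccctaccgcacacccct
The overlap holds 1 GC box. In 32851 promoters, 7.19% of windows of 22 bases directly before the start hold one. The overlap itself lies inside the first exons, so those windows are at a different place. The spacer holds none, against 20.7% of windows of 71 bases directly before the start, and neither stretch holds CCAAT or TATAAA.

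The laminin β genes are used unequally by the cell types below, so the 100 bases before the annotated start of Lamb1 (plus strand, chr12:31265134-31265233) and of Lamb2 (plus strand, chr9:108479636-108479735) are printed from the same table, with GC boxes in capitals.
Lamb1 upstream: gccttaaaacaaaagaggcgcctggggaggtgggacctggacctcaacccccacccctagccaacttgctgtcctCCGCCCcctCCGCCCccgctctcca
Lamb2 upstream: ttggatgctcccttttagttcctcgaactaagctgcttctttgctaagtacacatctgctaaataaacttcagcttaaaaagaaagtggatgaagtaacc
Lamb1 has 2 GC boxes in this window and Lamb2 has none, a motif held by 24.7% of promoter windows of 100 bases. Neither window holds CCAAT, which 18.9% of windows hold, or TATAAA, which 5.56% hold. A match describes these letters and is not a binding site.

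After filtering, the mutant library held 5276 cells and 41736212 UMIs (median 7385 per cell) and the wild-type library 7098 cells and 48973371 UMIs (median 6193). The libraries share 64 cell barcodes. Crlf3 stood at 105 CPM in the mutant library and 101 CPM in the wild-type library, which does not check the labels, since counts do not read a single base change. Cells were put in a class by markers that include no collagen or laminin gene. Endothelial-like, mural-like and the other classes are named from these markers. They held 796 and 806 endothelial-like cells in the mutant and the wild-type library, 166 and 125 mural-like, 9 and 20 fibroblast-like, 503 and 787 astrocyte-like and 151 and 434 choroid plexus-like cells. Leading genes included Ly6c1, Itm2a and Cldn5 for endothelial and Acta2, Tagln and Vtn for mural cells. They included Aldoc and Slc1a2 for astrocytes and Ttr and Enpp2 for choroid plexus cells. All of these are markers of the gate, so their lead was set by it and does not check the names. Leading genes that are not markers included Pglyrp1 and Spock2 for endothelial and Rgs4 and Atp13a5 for mural cells. Gpr37l1 and Bcan were such genes for astrocytes and Ecrg4 for choroid plexus cells. In the fibroblast-like class Apod, Mgp and Ptgds stood beside Dcn and Lum, and its 9 mutant cells make every mutant value of that class uncertain. A level (CPM) is a gene's summed UMIs in a class and library, scaled to a class total of 1000000. UMIs are counted once per molecule at the 5′ end, so levels were not divided by transcript length, though long transcripts may be read at their 5′ end less often. Exons of 16 of the 55 genes overlap another annotated gene, 3 of them on the same strand (Col3a1, Col7a1 and Col20a1), and those counts are less certain.

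The 55 genes together made up 12655 CPM in the mutant and 9460 CPM in the wild-type fibroblast-like cells, the highest sum of any class. The sum was 3609 and 3595 CPM in mural cells, 1380 and 1385 CPM in endothelial cells, 931 and 912 CPM in choroid plexus cells and 390 and 404 CPM in astrocytes of the mutant and the wild-type library. It was 182 and 174 CPM in microglia, most of it Col27a1, as described below. A gene was called measured in a class at a mean of at least 20 CPM over both libraries and at least 30 UMIs in all. Of the 55 genes, 31 were measured in at least 1 of the 5 classes, and of these 16 were at least 2 times as high in the mural or the fibroblast-like class as in each other class in both libraries, against 5.74% of all measured genes. With each cell thinned to 2000 UMIs this count was 4. The limit of 30 UMIs was kept, while each class held fewer UMIs after thinning. The number of genes that still passed the limits is not given here, so the 4 has no total to set beside the 31. Why the count fell was not tested. The fibroblast-like class led for 15 of the 31 (background 1.87%), the mural class for Col4a3 (3.87%) and the astrocyte class for Col11a2 (7.97%). The choroid plexus class led for Col9a3 and Col8a1 (4.91%) and the endothelial class for none (6.45%). Of the 15, Col15a1, Col16a1, Col26a1, Col12a1, Col13a1, Col6a1, Col6a2, Col23a1, Col1a1 and Lama1 were measured in no other of the 5 classes. They entered the 31 only through the class that leads for them. Without the fibroblast-like class, the mural class led for 11 of the 21 genes then measured (6.71%), Lamc1, Lamc3, Lama4, Lamb1, Col1a2, Col3a1, Col5a2, Col5a3, Col27a1, Col4a3 and Col4a5. The choroid plexus class then led for 3 (6.19%), Col9a3, Col8a1 and Col8a2, the astrocyte class for Col11a2 (10.5%) and the endothelial class for none (8.26%). Among the classes then left, Col3a1, Col5a2, Col5a3, Col27a1, Col4a3 and Col4a5 were measured in mural cells alone. Col8a2 was measured in choroid plexus cells alone and Col11a2 in astrocytes alone. These genes entered the 21 only through the class that leads for them. With all 5 classes, Col4a3 and Col11a2 were likewise measured only in their leading class.

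**Figure D1:**
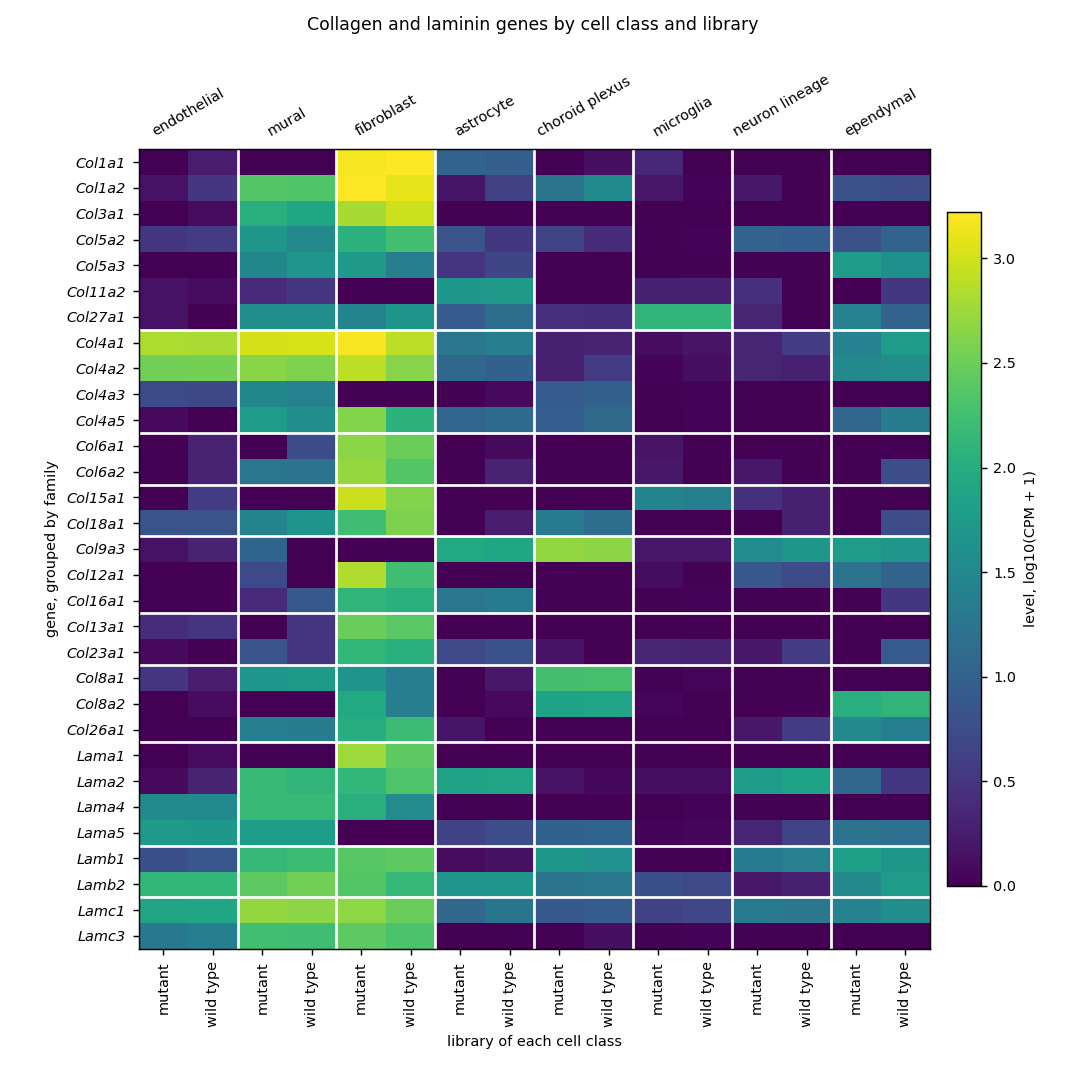
Levels of the 31 measured genes as log10(CPM + 1) in 8 cell classes, with the mutant library left of the wild-type library in each class and genes grouped by family. Col1a1, Col1a2 and Col3a1 are brightest in the fibroblast-like class, Col4a1 and Col4a2 in endothelial, mural and fibroblast-like cells, and Col9a3 and Col8a1 in choroid plexus cells.

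The type IV chains Col4a1 and Col4a2 were the most abundant members in endothelial cells, and Col4a1 was the most abundant in mural cells. Col4a1 stood at 673 and 657 CPM in endothelial cells of the mutant and the wild-type library, at 1017 and 1050 CPM in mural cells and at 1550 and 794 CPM in fibroblast-like cells. Its partner Col4a2, which joins 2 Col4a1 chains in the common type IV trimer, stood at 343 and 357 CPM in endothelial, 442 and 399 CPM in mural and 793 and 432 CPM in fibroblast-like cells. In both libraries the mural level of Col4a1 was above the endothelial level, while the place of the fibroblast-like level differed between the libraries. Col4a1 had a UMI in 92.5% of mutant and 89.5% of wild-type endothelial cells and in 92.2% and 96.0% of mural cells. With each cell thinned to 2000 UMIs and shallower cells left out, these shares were 68.9% and 71.3% of endothelial cells (20 and 25 left out) and 78.1% and 87.2% of mural cells (20 and 16 left out). In microglia, which should lack it, the share was 0.123% and 0.271%, at median depths of 7736 and 6342 UMIs against 5257 and 4538 in endothelial cells.

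The ratio of Col4a1 to Col4a2 UMIs in endothelial cells was 1.96 (interval 1.84 to 2.09) in the mutant and 1.84 (1.72 to 1.97) in the wild-type library. In pericytes it was 2.80 (2.38 to 3.29) and 2.89 (2.35 to 3.57), and those intervals lie above the endothelial ones in both libraries. Smooth muscle cells had 1.28 (0.972 to 1.69) and 2.04 (1.44 to 2.93). UMIs of both genes were found in 71.7% of mutant and 65.6% of wild-type endothelial cells. Over 8 classes in 2 libraries, Col4a2 was the gene whose log2(CPM + 10) followed Col4a1 most closely among 11426 genes (Pearson r = 0.996 over 16 points), before Tns2 (0.976), Rhoj (0.975), Cd151 (0.970) and Foxc1 (0.968). These points share libraries, and the correlation is a description. The first exons of the pair overlap on opposite strands, and the sources used here do not state how the counting treated strand.

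The other type IV chains were lower. Col4a5 stood at 57.5 and 38.1 CPM in mural and 415 and 121 CPM in fibroblast-like cells of the mutant and the wild-type library, and its neighbour Col4a6 held 11 UMIs in the fibroblast-like cells of each library. Col4a3 stood at 28.8 and 24.7 CPM in mural cells, where 20 and 11 UMIs were counted against 18 and 10 of Col4a4. In choroid plexus cells the pair was tilted to Col4a4, with 46 UMIs against 17 of Col4a3 in the mutant and 76 against 48 in the wild-type library. The share of Col4a3 in their sum was thus 27.0% (16.6 to 39.7%) and 38.7% (30.1 to 47.9%) there. In mural cells it was 52.6% (35.8 to 69.0%) and 52.4% (29.8 to 74.3%), and these intervals overlap those of choroid plexus cells in both libraries. In endothelial cells the tilt was the other way, with 19 and 16 UMIs of Col4a3 against 3 and 1 of Col4a4. The intervals of the endothelial and the choroid plexus shares do not overlap in either library.

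The fibrillar chains Col1a1, Col1a2, Col3a1 and Col5a2 were led by the fibroblast-like class. Col1a1 and Col1a2, which form the type I fibril, stood at 1514 and 1663 CPM and at 1622 and 1272 CPM in the mutant and the wild-type library, and every cell of the class held both. Col3a1, the type III chain of elastic tissues, stood at 622 and 955 CPM there and at 105 and 76.3 CPM in mural cells. Mural cells held Col1a2 without its partner. They had 157 UMIs of Col1a2 in 94 of 166 mutant cells and 98 UMIs in 61 of 125 wild-type cells (226 and 220 CPM), but 0 UMIs of Col1a1 in both libraries, which allows up to 4.32 and 6.73 CPM. Fibroblast markers summed to 318 and 269 CPM in them. The share of Col1a1 among the UMIs of both chains was at most 2.32% and 3.69% in mural cells, against 48.3% (42.9 to 53.7%) and 56.7% (52.2 to 61.0%) in fibroblast-like cells. The same chain was alone in choroid plexus cells, with 36 and 175 UMIs of Col1a2 against 0 and 2 of Col1a1. Astrocytes held the reverse at a low level, with 38 and 41 UMIs of Col1a1 spread over 35 cells in each library and at most 2 in a cell, against 2 and 15 UMIs of Col1a2.

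The other fibrillar chains were spread over several classes. Col11a2, a type XI chain best known from cartilage, was led by astrocytes at 51.7 and 52.9 CPM in the mutant and the wild-type library and held 0 UMIs in fibroblast-like and choroid plexus cells. Col5a2 and Col5a3, type V chains that take part in fibril assembly, stood at 47.5 and 31.4 CPM and at 28.8 and 47.1 CPM in mural cells. Col5a2 was higher in fibroblast-like cells, at 117 and 178 CPM, and Col5a3 held 6 and 4 UMIs there. Col27a1 stood at 38.8 and 38.1 CPM in mural cells but was highest in microglia, at 131 CPM in each library (interval 127 to 136 and 127 to 135), where 59.7% and 53.4% of cells held a UMI. It was the most abundant member in microglia, where Col15a1 came next at 27.5 and 23.4 CPM.

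Laminin chains were read as sums of α, β and γ genes. In endothelial cells of the mutant and the wild-type library the α genes summed to 96.4 and 95.7 CPM, the β genes to 141 and 141 CPM and the γ genes to 94.2 and 101 CPM. The α sum was mostly Lama5 (52.8 and 51.9 CPM) and Lama4 (33.0 and 33.9 CPM), the α chains known from brain endothelium. The β sum was nearly all Lamb2, at 136 and 134 CPM, with Lamb1 at 5.12 and 6.58 CPM. The γ sum was Lamc1 (75.3 and 76.7 CPM), the general γ chain, and Lamc3 (18.9 and 23.5 CPM).

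Mural cells held more of each kind. Their γ genes summed to 666 and 631 CPM, with Lamc1 at 492 and 462 CPM and Lamc3 at 174 and 168 CPM. Their β genes summed to 409 and 500 CPM, with Lamb2 at 265 and 341 CPM and Lamb1 at 144 and 159 CPM. Their α genes summed to 351 and 337 CPM, shared by Lama2 (147 and 126 CPM), Lama4 (147 and 153 CPM) and Lama5 (57.5 and 58.3 CPM). Lamc1 had a UMI in 82.5% of mutant and 72.0% of wild-type mural cells, against 2.42% and 2.48% of microglia, with median depths of 3614 and 3004 UMIs in mural cells. After thinning to 2000 UMIs the mural shares were 62.3% and 52.3%.

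In fibroblast-like cells the main α gene was Lama1, at 559 and 265 CPM in the mutant and the wild-type library, and it held 0 UMIs in mural cells of both libraries. Lama5 held 0 UMIs in fibroblast-like cells of both libraries, which allows up to 27.0 and 17.3 CPM. In astrocytes the α sum, 83.2 and 87.1 CPM, exceeded the β sum, 47.3 and 47.1 CPM, and the γ sum, 10.5 and 16.8 CPM. Nearly all of it was Lama2, the α chain of endfoot and muscle laminin, at 70.9 and 74.8 CPM, and the β sum was Lamb2 at 46.6 and 46.4 CPM. Choroid plexus cells held mostly β genes, with a sum of 67.9 and 59.4 CPM, led by Lamb1 (51.7 and 41.1 CPM), against α sums of 9.44 and 10.2 CPM and γ sums of 6.74 and 8.56 CPM. A 5′ count of RNA does not measure assembled trimers.

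**Figure D2:**
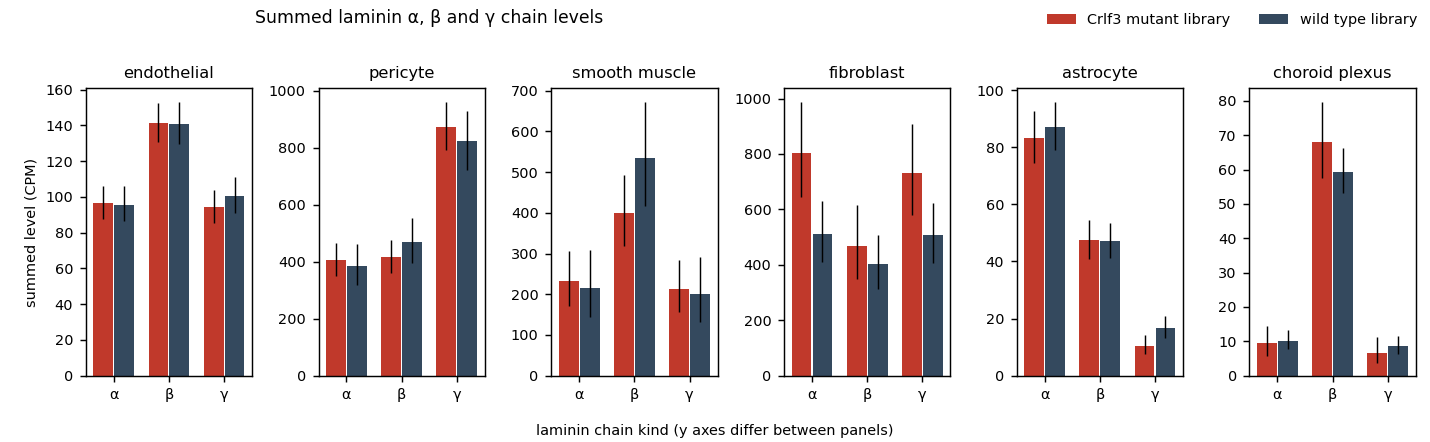
Summed levels (CPM) of laminin α, β and γ genes in 6 cell types, with the mutant library left of the wild-type library and bars for 95% counting intervals. Pericytes are tallest in γ, astrocytes in α and choroid plexus cells in β, in both libraries.

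Col9a3 was measured in astrocytes and choroid plexus cells. The gene encodes a chain of type IX collagen, a fibril-associated collagen that is built of Col9a1, Col9a2 and Col9a3 in cartilage. Col9a3 was the most abundant member in choroid plexus cells, at 495 and 462 CPM in the mutant and the wild-type library, and in astrocytes, at 89.3 and 77.9 CPM. In choroid plexus cells Col9a1 and Col9a2 held 0 UMIs in both libraries. Ttr, the choroid plexus product transthyretin, was also counted in other classes, at 33.8 and 212 CPM in astrocytes against 207514 and 225486 CPM in choroid plexus cells. At the Col9a3 to Ttr ratio of choroid plexus cells, that Ttr corresponds to 0.0806 and 0.435 CPM of Col9a3. The part of stray choroid plexus RNA in the astrocyte level was not tested. The share of cells with a Col9a3 UMI was 38.8% and 31.0% of astrocytes and 0.337% and 0.248% of microglia, and 13.3% and 14.5% of astrocytes after thinning to 2000 UMIs. Outside the 5 classes, Col9a3 also stood at 57.6 and 47.4 CPM in ependymal-like and at 36.0 and 50.2 CPM in neuron-lineage cells.

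Type VIII collagen, a short network collagen, was the other choroid plexus product. Col8a1 stood at 184 and 194 CPM and Col8a2 at 70.6 and 74.4 CPM there, with 2.61 (2.17 to 3.16) and 2.60 (2.32 to 2.93) UMIs of Col8a1 for each of Col8a2 in the mutant and the wild-type library. UMIs of both were found in 47.0% and 37.3% of choroid plexus cells. Mural cells held Col8a1 without Col8a2, with 34 and 25 UMIs against 0 and 0. Ependymal-like cells, which line the ventricles (19 and 42 cells), held Col8a2 without Col8a1, with 20 and 53 UMIs (105 and 126 CPM) against 0 and 0. Ependymal cells were also where Col6a5, a type VI chain, was found, with 16 and 38 UMIs (83.8 and 90.1 CPM), and it held 0 UMIs in each of the other 7 classes.

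Pericytes and smooth muscle cells, told apart within the mural class by markers that are not members, differed in most of the chains measured in them. There were 138 and 105 pericytes and 27 and 18 smooth muscle cells in the mutant and the wild-type library. Of 17 genes measured, 3 were at least 2 times higher in smooth muscle cells in both libraries (background 5.66%) and 9 were at least 2 times lower (background 10.6%). The higher genes were Lama5, Col18a1 and Col4a5, which passed the measured limits in smooth muscle cells and not in pericytes alone. Lama5 stood at 172 CPM in mutant and 185 CPM in wild-type smooth muscle cells against 6.29 and 0 CPM in pericytes. Col18a1, the multiplexin whose end fragment is endostatin, stood at 88.2 and 141 CPM in smooth muscle cells against 0 and 3.29 CPM in pericytes. Col4a5 stood at 130 and 66.7 CPM in smooth muscle cells against 25.1 and 26.3 CPM in pericytes.

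The lower genes were Lamb1, Lamc3, Lama2, Lama4, Lamc1, Col5a3, Col5a2, Col3a1 and Col27a1. All but Lamc1 passed the measured limits in pericytes and not in smooth muscle cells alone. Lamb1 held 0 UMIs in smooth muscle cells of both libraries, against 210 CPM in mutant and 230 CPM in wild-type pericytes. Against the limit of 3 UMIs in smooth muscle cells, the pericyte level of Lamb1 was 15.05 times as high in the mutant and 10.3 times in the wild-type library. These folds leave out the counting error of the pericyte level. Lamb2 had the other order, with 399 and 533 CPM in smooth muscle cells against 205 and 240 CPM in pericytes. The mural α genes also divided, with Lama2 at 13.9 and 7.41 CPM in smooth muscle cells against 207 and 177 CPM in pericytes. Pericytes held Lama2, Lama4, Lamb1, Lamb2, Lamc1 and Lamc3, and smooth muscle cells mainly Lama5, Lamb2 and Lamc1 (186 and 200 CPM). Col1a2 did not differ by 2 times, at 237 and 215 CPM in smooth muscle cells and 214 and 223 CPM in pericytes.

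**Figure D3:**
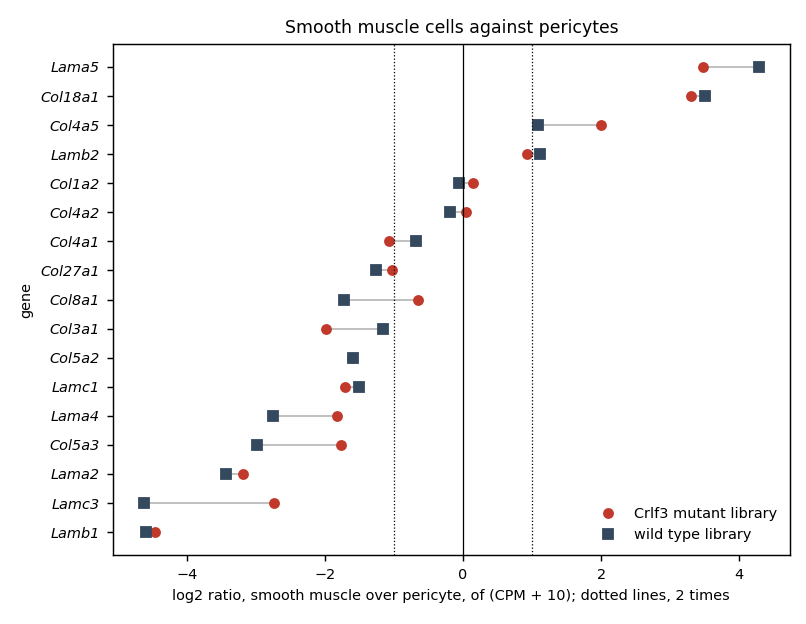
Log2 ratio of smooth muscle cells over pericytes, on the log2(CPM + 10) scale, for the 17 genes measured in them, with circles for the mutant and squares for the wild-type library. Lama5, Col18a1 and Col4a5 lie beyond the dotted 2 times line on the right and 9 genes beyond it on the left in both libraries.

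Arterial-like and capillary-like endothelial cells were compared in the same way. Of 9 genes measured, 2 were at least 2 times higher in arterial-like than in capillary-like cells in both libraries (background 2.24%), and none was at least 2 times lower (background 1.37%). Lama3, an α chain best known from epithelia, stood at 74.4 and 49.1 CPM in arterial-like cells of the mutant and the wild-type library (28 cells each), against 7.61 and 5.79 CPM in capillary-like cells (728 and 740 cells). Col18a1 stood at 64.5 and 65.5 CPM in arterial-like cells against 2.21 and 2.48 CPM in capillary-like cells. The arterial-like levels rest on 15 and 9 UMIs of Lama3 and 13 and 12 UMIs of Col18a1. Neither gene passed the measured limits in either subset alone or in all endothelial cells. Both thus entered the 9 through the arterial-like level, where they are high. Mural markers summed to 39.7 and 27.3 CPM in arterial-like and 282 and 333 CPM in capillary-like cells, and their part in this split was not tested. Col4a1 stood at 898 and 775 CPM in arterial-like against 653 and 648 CPM in capillary-like cells. Venous-like cells numbered 4 and 1 and were not compared.

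The remaining genes led by the fibroblast-like class span several families. They include the type VI chains Col6a1 (460 and 311 CPM in the mutant and the wild-type library) and Col6a2 (514 and 224 CPM), which form beaded filaments, and the multiplexins Col15a1 (928 and 420 CPM) and Col18a1 (171 and 380 CPM). They also include the fibril-associated Col12a1 (694 and 173 CPM) and Col16a1 (126 and 109 CPM) and the transmembrane Col13a1 (306 and 247 CPM) and Col23a1 (135 and 109 CPM). Col26a1, a small collagen, stood at 99.2 and 161 CPM. Of the 24 genes not measured in the 5 classes, Col6a4 held 0 UMIs in the 12374 cells and 15 more held between 2 and 60. The other 8, from 65 UMIs upward, were Col7a1, Col17a1, Col9a2, Col14a1, Lama3, Col11a1, Col4a4 and Col6a3. Among the 15 were Col19a1, Col24a1, Col6a6, Col28a1, Col2a1, Col22a1, Col9a1, Col20a1, Col10a1, Col4a6, Col25a1, Col5a1 and Col6a5.

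Between the genotypes, the summed level of the collagen and laminin genes was nearly the same in both libraries in endothelial cells, mural cells and astrocytes. The summed level of all 55 genes in the mutant over the wild-type library had a log2 ratio of -0.01 (interval -0.06 to 0.05) in endothelial cells, 0.01 (-0.09 to 0.10) in mural cells, -0.05 (-0.15 to 0.04) in astrocytes and 0.03 (-0.05 to 0.10) in choroid plexus cells. Ratios of single genes are on the log2(CPM + 10) scale. None of the 7 genes measured in endothelial cells was 1.5 times higher (background 0.0157%) or 1.5 times lower (0.126%), and their ratios ran between -0.21 for Lamc3 and 0.04 for Col4a1. The interval of Col4a1 was -0.04 to 0.11. Of the 18 genes measured in mural cells, none was 1.5 times higher (background 4.39%) or lower (2.69%), with ratios between -0.56 for Col5a3 (20 and 21 UMIs) and for Col18a1 and 0.49 for Col4a5 (40 and 17 UMIs). Lamb2 was the mural gene whose interval left out 0, with a ratio of -0.35 (-0.66 to -0.04) from 184 UMIs in the mutant and 152 in the wild-type library.

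Astrocytes had 5 measured genes, and none was 1.5 times higher (background 0.228%) or lower (0.213%). Their ratios ran between -0.26 for Col4a1 and 0.18 for Col9a3. In choroid plexus cells 1 of 5 measured genes was 1.5 times apart. Col1a2 was lower, with 36 UMIs in 25 of 151 mutant cells and 175 UMIs in 101 of 434 wild-type cells, or 16.2 against 32.6 CPM (log2 ratio -0.70, interval -1.04 to -0.35, background 0.344% lower and 0.425% higher). Fibroblast markers summed to 167 and 182 CPM in choroid plexus cells of the mutant and the wild-type library, and their part in this ratio was not tested. Xist and no Y transcript was found in 0 mutant and 3 wild-type choroid plexus cells, and a Y transcript and no Xist in 68 and 212. In endothelial cells these numbers were 279 and 245, and 191 and 180. How many mice of each pool gave the choroid plexus cells is not known, and its part in this ratio was not tested. The median ratio of measured collagen and laminin genes was -0.02 in endothelial, 0.03 in mural, -0.03 in astrocyte and -0.07 in choroid plexus cells, beside 0.01, 0.02, 0.01 and 0.06 over all genes measured in those classes.

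**Figure D4:**
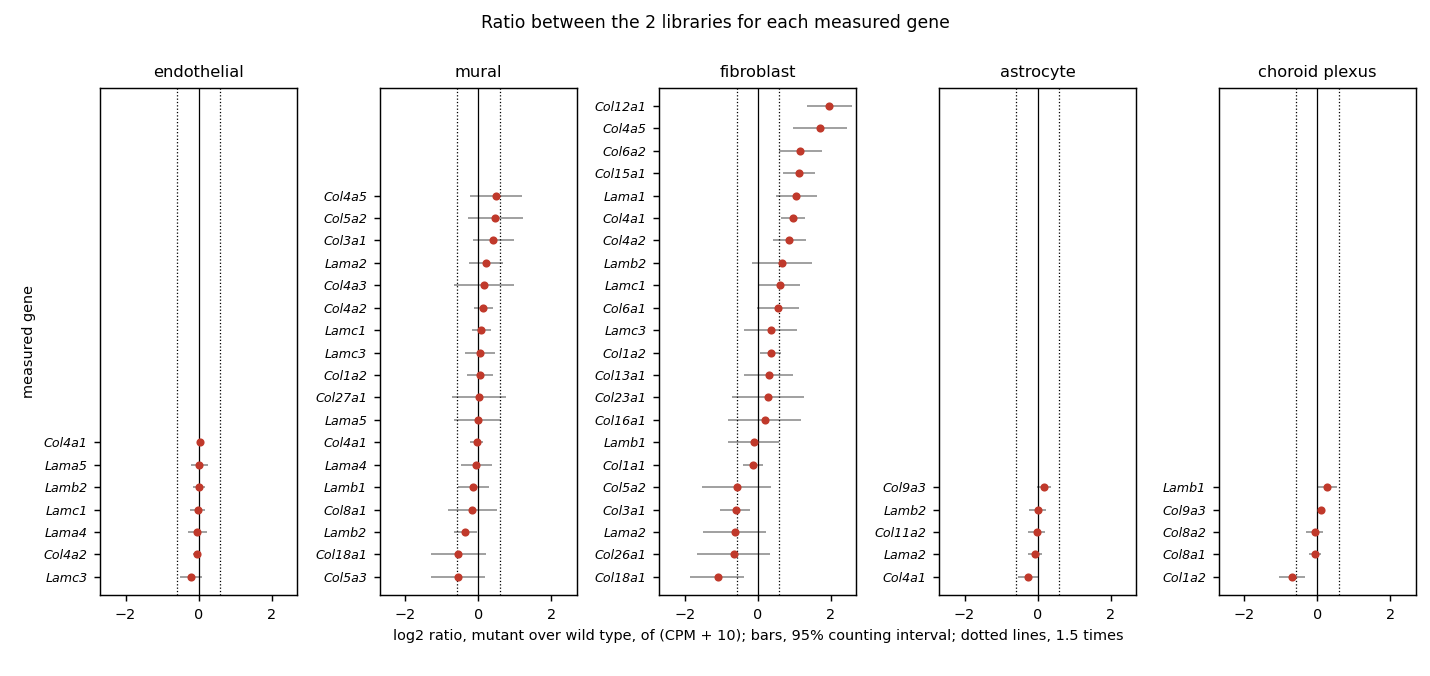
Log2 ratio of the mutant over the wild-type library, on the log2(CPM + 10) scale, for each gene measured in 5 classes, with 95% counting intervals and dotted lines at 1.5 times. Endothelial, mural and astrocyte genes lie within the dotted lines, Col1a2 lies below them in choroid plexus cells, and the fibroblast-like genes spread on both sides.

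Fibroblast-like cells differed between the libraries, with 9 mutant cells against 20 wild-type cells. Their summed level had a log2 ratio of 0.42 (0.32 to 0.52). Of 22 measured genes, 9 were at least 1.5 times higher (background 14.1%) and 4 at least 1.5 times lower (17.9%), and the median ratio was 0.35 against -0.04 over the 1765 genes measured. Higher in the mutant library were Col12a1 (1.95), Col4a5 (1.70), Col6a2 (1.16), Col15a1 (1.13), Lama1 (1.05), Col4a1 (0.96), Col4a2 (0.86), Lamb2 (0.67) and Lamc1 (0.60). Lower were Col18a1 (-1.10), Col26a1 (-0.65), Lama2 (-0.62) and Col3a1 (-0.61). Single cells carried much of these sums, since 35 of 57 Col6a2 UMIs and 30 of 62 Lama1 UMIs of the mutant library came from 1 cell each. The direction of Col3a1 depended on how cells were assigned, with a ratio of 0.039 when whole clusters were used.

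The makeup of the class also differed. Clustered without collagen and laminin genes, 2 clusters held these cells together with some cells outside the marker gate, led by Apod, Dcn and Spp1 (9 mutant and 10 wild-type cells) and by Mgp, Dcn and Coch (4 mutant and 20 wild-type cells). The Apod cluster held 18836 CPM of the 55 genes in the mutant and 13741 CPM in the wild-type library, and the Mgp cluster 6154 and 5554 CPM. Basement membrane chains marked the Apod cluster, where Col4a1 stood at 2961 and 1624 CPM against 107 and 255 CPM in the Mgp cluster, and Col15a1 at 1659 and 955 CPM against 17.8 and 25.6 CPM. Of the gated cells, 6 of 9 in the mutant and 8 of 20 in the wild-type library lay in the Apod cluster. Mural markers moved with this, with a median level of 14847 CPM in mutant and 834 CPM in wild-type cells of the class, of which Vtn gave 93.2% and 90.5% of the UMIs, and their part in the ratios was not tested. Within the Apod cluster that median was 14847 and 11600 CPM.

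**Figure D5:**
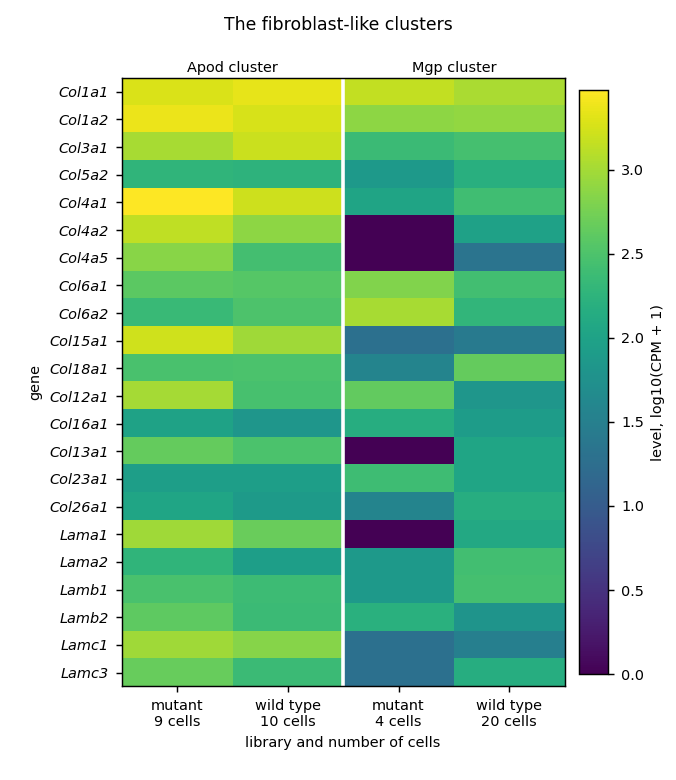
Levels of the 22 genes measured in fibroblast-like cells as log10(CPM + 1) in the Apod and Mgp clusters, with the mutant library left of the wild-type library and cell numbers under each column. Col4a1, Col4a2, Col15a1 and Lamc1 are bright in the Apod cluster of both libraries and dim in the Mgp cluster.

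Other genes of matrix assembly were read from 5 lists. None of 27 measured genes of these lists in endothelial cells, 29 in astrocytes and 21 in choroid plexus cells was 1.5 times apart, beside the low shares of all genes given above for those classes, so these counts show nothing particular to the lists. Smaller differences had intervals that left out 0. Sparc, a collagen-binding protein, stood at 679 CPM in mutant and 822 CPM in wild-type astrocytes (log2 ratio -0.27, interval -0.34 to -0.20), and at 4480 and 4283 CPM in endothelial cells (0.06, 0.04 to 0.09). Nid2, the basement membrane linker nidogen 2, stood at 23.4 and 34.2 CPM in endothelial cells (-0.40, -0.68 to -0.13) and at 54.8 and 42.2 CPM in choroid plexus cells (0.31, 0.04 to 0.58). In mural cells 3 of 41 were at least 1.5 times higher and 3 lower, against the 4.39% and 2.69% of all genes given above. The higher ones were Fbln1, which encodes fibulin 1 and is also a fibroblast marker of the gate (59.0 and 35.9 CPM in the mutant and the wild-type library), Fkbp10, a collagen chaperone (47.5 and 24.7 CPM), and Lox, the collagen crosslinking enzyme lysyl oxidase. Lox held 54 UMIs in 17 of 166 mutant mural cells against 9 UMIs in 9 of 125 wild-type mural cells, or 77.7 against 20.2 CPM (log2 ratio 1.54), and 16 of the 54 UMIs came from 1 cell. Among the lower ones were Plod2, a collagen lysyl hydroxylase (64.7 and 114 CPM), and Npnt, the integrin ligand nephronectin (25.9 and 44.9 CPM). In fibroblast-like cells 3 of 23 listed genes were at least 1.5 times higher and 4 lower, shares close to the 14.1% and 17.9% of all genes, among them Dag1, the laminin receptor dystroglycan, at 415 and 213 CPM (0.93) and Crtap, a collagen prolyl hydroxylation cofactor, at 207 and 409 CPM (-0.95).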

How the data were processed

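The files hold UMI counts per gene and cell barcode, which the authors deposited as made by Cell Ranger 6.1.1 with an mm10 mouse reference, per the labels' protocols. Partek is named in the submitters' processing notes without a role, and the use of strand in counting is not given in the sources used here. Barcodes below 500 genes or 1000 UMIs, or above 10% mitochondrial UMIs, were dropped, which left 5353 of 5720 barcodes in the mutant and 7246 of 7713 in the wild-type library. Scrublet (expected rate 0.06) then removed 77 and 148 doublets.

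A cell joined a class when it held at least 0.4 of that class's markers and every other class stood at or below 0.6 of its share. These thresholds were set after the files were read. The markers (172 symbols, 0 unmatched), the collagen and laminin genes and the gene lists (122 symbols, 1 unmatched) were chosen with earlier results of these data known. UMIs were summed per class and library and divided by the class total. Ratios are on the log2(CPM + 10) scale for genes measured at a mean of 20 CPM and 30 UMIs, and genes 1.5 times apart are counted. Every measured member may be named, and at most 4 genes of each other list by size of ratio. Intervals are exact Poisson for levels, Clopper-Pearson for shares and conditional binomial for ratios, at 95%. A count of 0 allows up to 3 UMIs. UMIs remove PCR copies, and intervals cover counting error only. Analyses ran in Python 3.11.15 with scanpy 1.11.5, scipy 1.17.1 and leidenalg 0.10.2, and the ratio code was tested on simulated data. Values of some genes are not reported here.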

Additional observations from a re-analysis of the deposited data

Results flagged for a closer look

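Outside the 5 classes compared, 7 values were higher in the mutant than in the wild-type library beyond their counting intervals. In microglia Col15a1 had 718 UMIs in the mutant and 696 in the wild-type library (27.5 and 23.4 CPM), spread over 597 mutant cells with at most 4 in a cell. Also in microglia, Col1a1 had 34 UMIs in the mutant and 0 in the wild-type library, of which 33 lay in 1 cell. Col6a2 had 16 and 0, all 16 in 1 cell, Col1a2 had 15 and 2, with 14 in 1 cell, and Col6a1 had 12 and 1, with 11 in 1 cell. In cells without a class Lamc1 had 124 and 108 UMIs (58.1 and 38.2 CPM) in the mutant and the wild-type library. Col9a3 had 209 and 191 UMIs there (97.9 and 67.6 CPM). Other values in cells without a class were lower in the mutant library beyond their counting intervals. These were Col1a1 (35 and 123 UMIs), Col1a2 (67 and 166), Lamb1 (28 and 80) and Col27a1 (59 and 132). Col18a1 (13 and 69), Col23a1 (6 and 43), Col14a1 (1 and 34) and Col6a1 (6 and 31) were also lower. With 1 library per genotype these differences were not tested.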

How the results depend on the processing

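The summed log2 ratio of the 55 genes in the mutant over the wild-type library moved beyond its counting interval in 4 cases. It was 0.11 in choroid plexus cells under a stricter cell filter, 0.74 in fibroblast-like cells with Leiden clusters, and, among cells with a Y transcript and no Xist, -0.23 in mural and 0.73 in fibroblast-like cells. The 16 genes led by the mural or fibroblast-like class became 4 after thinning to 2000 UMIs and 10 among cells with a Y transcript and no Xist, and were 13 to 21 under the other planned settings. Col3a1 in fibroblast-like cells reversed with Leiden clusters, at 0.039 against -0.61. The causes were not tested. Single-gene ratios moved in 19 fibroblast, 15 mural, 5 endothelial, 5 astrocyte and 5 choroid plexus cases and stayed within their intervals in 222, 219, 86, 60 and 55. Of the settings added after seeing the data, leaving out the 5% of cells with most collagen and laminin UMIs (all 5 classes) and pericytes alone (mural class) moved no summed ratio beyond its interval, and without the fibroblast-like class the mural class led for 11 genes. The stricter gate left no mutant fibroblast-like cell, and cells with Xist and no Y transcript left no mutant fibroblast-like or choroid plexus cell, so those values and the count of led genes could not be had. No paired analysis was possible because each genotype is 1 library. The fibroblast-like values rest on 9 and 20 cells.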
